A study of Mus musculus with 28 samples.

Results

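Genes of motile cilia and of ependymal cells were examined in RNA from hippocampal CA1. Members were chosen by name: every gene whose symbol is Cfap, Dnah, Dnai, Rsph or Drc followed by a number, plus Foxj1, Ccdc153, Tmem212, Rarres2, Dynlrb2, Tppp3 and Spata6. The rule found 65 genes among 48709 gene identifiers, of which 31 were Cfap genes, 16 Dnah, 8 Rsph, 3 Drc and 7 listed by name. No symbol of the form Dnai with a number occurred in the annotation used. The list was drawn up with earlier results of these libraries known, so counts over it are descriptions.

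Libraries came from 3 groups of mice, all 3 months old and of both sexes. CamkdeltaC transgenic mice given vorinostat, also called SAHA, in their drinking water for 4 weeks gave 9 libraries. CamkdeltaC transgenic mice given vehicle gave 9 libraries, and wildtype littermates given vehicle gave 10. Treatment started at 2 months of age. Vorinostat inhibits histone deacetylases, and as background the transgene, which codes for a calcium and calmodulin dependent kinase isoform, is active in heart muscle, so CA1 is studied as a tissue remote from its site of action. Wildtype mice on vorinostat were not analysed here, which leaves the drug without the transgene unmeasured. Xist, a transcript of the inactive X chromosome, was over 100 CPM in 5 of 9 vorinostat, 3 of 9 transgenic vehicle and 6 of 10 wildtype vehicle libraries, so the groups differ in the mix of sexes. No label states that the libraries are separate mice, so p-values describe the spread between these libraries. Totals were 20230085 to 33191857 counts per library, with a median of 23807060.5, and the share of mitochondrial counts was 6.41% in wildtype vehicle library 2 and 6.39%, 7.48% and 6.94% in vorinostat libraries 6, 7 and 9, against 2.84% to 4.11% in the other 24.

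Motile cilia beat because rows of dynein motors, built on heavy chains of the Dnah family, slide the microtubule doublets of the axoneme against each other. Radial spokes (Rsph genes) and the nexin-dynein regulatory complex (Drc genes) link the doublets and set the pattern of the beat, and many Cfap proteins sit inside the doublets, on the central pair or in the machinery that assembles the motors. Foxj1, a forkhead transcription factor, switches on the programme together with RFX factors. In the brain, cells with many motile cilia are chiefly ependymal cells, which line the ventricles, while neurons carry a single primary cilium. CA1 holds no ventricle lining of its own, though the lateral ventricle lies beside the hippocampus.

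Promoter sequences were read from the RefSeq tables of GRCm38.p6 for 50 of the 65 members, each from 250 bases before to 50 bases after the RefSeq start of the gene. They were searched on both strands for the arms GTTNC and GNAAC set 3 or 4 bases apart, palindromic forms of the site RFX factors are known to bind, and for GTAAACA, a forkhead motif. The form with a gap of 3 bases, 13 bases long, occurred in 8 of the 50 members (16%) and in 1.12% of 27025 genes with a promoter sequence. The members were Dnah6, Dnah7a, Dnah7b, Dnah7c, Dnah9, Drc3, Dynlrb2 and Rsph3b, of which the 3 Dnah7 genes are near-identical copies. The form with a gap of 4 bases, 14 bases long, occurred in 5 members (10%), Cfap298, Cfap44, Cfap45, Cfap57 and Cfap61, and in 1.19% of genes. GTAAACA occurred in 3 members (6%), Cfap20, Cfap43 and Dnah17, and in 4.05% of genes. No position was shared between matches of different motifs in the promoters printed here.

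The promoters of Dnah6, Dnah9 and Dynlrb2 carry the 13-base form and that of Cfap298 the 14-base form. Those of Ccdc153 and Tmem212, the members whose level varied most between libraries, hold none of the 3 letter patterns in this window. Capitals mark the match, and each sequence runs 5′ to 3′ on the strand of its gene. The regions are Dnah6 (chr6:73221582-73221881, minus strand), Dnah9 (chr11:66168502-66168801, minus strand), Dynlrb2 (chr8:116504765-116505064, plus strand), Cfap298 (chr16:90934800-90935099, minus strand), Ccdc153 (chr9:44240427-44240726, plus strand) and Tmem212 (chr3:27896319-27896618, minus strand).
Dnah6: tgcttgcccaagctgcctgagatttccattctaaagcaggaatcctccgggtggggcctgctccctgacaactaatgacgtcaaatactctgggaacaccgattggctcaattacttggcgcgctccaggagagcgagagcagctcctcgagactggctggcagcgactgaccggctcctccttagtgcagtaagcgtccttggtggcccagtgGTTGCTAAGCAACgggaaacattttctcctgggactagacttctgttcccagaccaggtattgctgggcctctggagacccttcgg
Dnah9: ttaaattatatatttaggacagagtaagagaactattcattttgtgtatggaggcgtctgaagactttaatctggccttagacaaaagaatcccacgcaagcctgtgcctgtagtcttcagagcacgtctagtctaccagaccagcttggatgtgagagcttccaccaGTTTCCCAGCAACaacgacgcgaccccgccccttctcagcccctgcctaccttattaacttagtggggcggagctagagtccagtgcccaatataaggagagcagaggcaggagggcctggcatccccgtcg
Dynlrb2: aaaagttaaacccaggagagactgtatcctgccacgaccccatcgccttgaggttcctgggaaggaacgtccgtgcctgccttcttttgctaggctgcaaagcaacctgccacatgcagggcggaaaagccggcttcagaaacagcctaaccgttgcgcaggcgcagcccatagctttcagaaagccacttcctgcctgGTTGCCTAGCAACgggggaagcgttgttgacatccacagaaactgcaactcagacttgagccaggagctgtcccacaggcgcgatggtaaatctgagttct
Cfap298: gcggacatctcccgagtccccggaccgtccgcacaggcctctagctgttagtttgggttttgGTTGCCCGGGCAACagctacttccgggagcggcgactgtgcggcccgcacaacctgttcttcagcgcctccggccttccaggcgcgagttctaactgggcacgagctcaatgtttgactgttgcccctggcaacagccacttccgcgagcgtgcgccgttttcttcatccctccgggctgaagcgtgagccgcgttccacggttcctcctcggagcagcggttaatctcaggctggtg
Ccdc153: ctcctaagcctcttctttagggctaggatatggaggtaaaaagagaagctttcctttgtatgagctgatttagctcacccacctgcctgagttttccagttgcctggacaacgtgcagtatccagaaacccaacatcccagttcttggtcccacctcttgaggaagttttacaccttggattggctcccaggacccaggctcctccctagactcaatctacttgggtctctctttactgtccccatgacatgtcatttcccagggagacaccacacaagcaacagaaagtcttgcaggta
Tmem212: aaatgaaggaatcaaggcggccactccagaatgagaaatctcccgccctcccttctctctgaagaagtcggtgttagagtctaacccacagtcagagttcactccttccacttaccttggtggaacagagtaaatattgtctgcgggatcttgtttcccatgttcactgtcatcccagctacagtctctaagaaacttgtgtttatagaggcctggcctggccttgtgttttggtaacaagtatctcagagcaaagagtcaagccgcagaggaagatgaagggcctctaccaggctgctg

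Transcript levels of the members spanned a wide range. Levels per length are given as RPKM, counts scaled to exonic length and library size in the usual way, averaged over the 28 libraries. The median member had an RPKM of 0.489, 24 members reached an RPKM of at least 1 and 10 stayed under 0.1. The highest were Cfap36 at 27.7 RPKM, the dynein assembly factor Cfap298 at 15.2, Tppp3, a member of the tubulin polymerization promoting family, at 12.5 and Cfap20, a protein of the doublet junction, at 9.76. Exons of genes on the opposite strand overlap 53.6% of the exonic bases of Cfap298, and the library kit keeps no strand, so part of its count may belong to those genes. Among motor heavy chains Dnah6 (2.86 RPKM) and Dnah9 (2.41 RPKM) came first, and among spoke and link genes Rsph9 (7.38 RPKM) and Drc1 (5.09 RPKM).

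Other genes listed by name were lower than Tppp3. Foxj1 had 1.41 RPKM, Rarres2, which codes for the secreted protein chemerin, 1.10 RPKM, Tmem212 0.558 RPKM, and Ccdc153 0.349 RPKM, so the first 3 lay above the median member. The heavy chain gene Dnah12 had 0.0592 RPKM. Exons of Lrrc61 on the opposite strand overlap 33.6% of the exonic bases of Rarres2. The summed level of all members averaged 546 CPM (counts scaled in the usual way to the TMM-adjusted library total), of which the 5 highest members made up 42.8% and Ccdc153, Tmem212 and Dynlrb2 together 0.246%. A sum over the list therefore follows its widely expressed members. The 10 members below the low-count filter were Cfap221, Cfap299, Cfap53, Cfap73, Cfap77, Cfap97d1, Dnah2os, Dynlrb2, Rsph14 and Rsph6a, with 0 to 19 counts per library. Dnah2os lies antisense to Dnah2 and cannot be told apart from it where they overlap. In bulk tissue, fewer cells of a type and less RNA per cell cannot be told apart.

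The members also differed in how much they varied between libraries of a group. This spread is given as the biological coefficient of variation of edgeR, the variation between libraries beyond counting error as a fraction of the level. Its median was 0.160 for the 55 members that passed the low-count filter and 0.116 for all 17009 genes that did. Tmem212 reached 1.001 and Ccdc153 0.933, where edgeR's trend for genes at their abundance was 0.208 and 0.204. Cfap126, a protein of the doublet interior, had 0.673, and the heavy chain genes Dnah12 and Dnah11 had 0.566 and 0.528. In all, 14 of 55 members (25.5%) lay in the top 10% of genes by dispersion and 7 in the top 1%, namely Tmem212, Ccdc153, Cfap126, Dnah12, Dnah11, Cfap161 and Dnah3. At the other end, 15 members lay under the median of all genes, with Drc1 at 0.0726, Rsph3b at 0.0745 and Cfap20 at 0.0829. The 7 members in the top 1% all had under 1 RPKM, as the plot of level against spread shows.

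**Figure D1:**
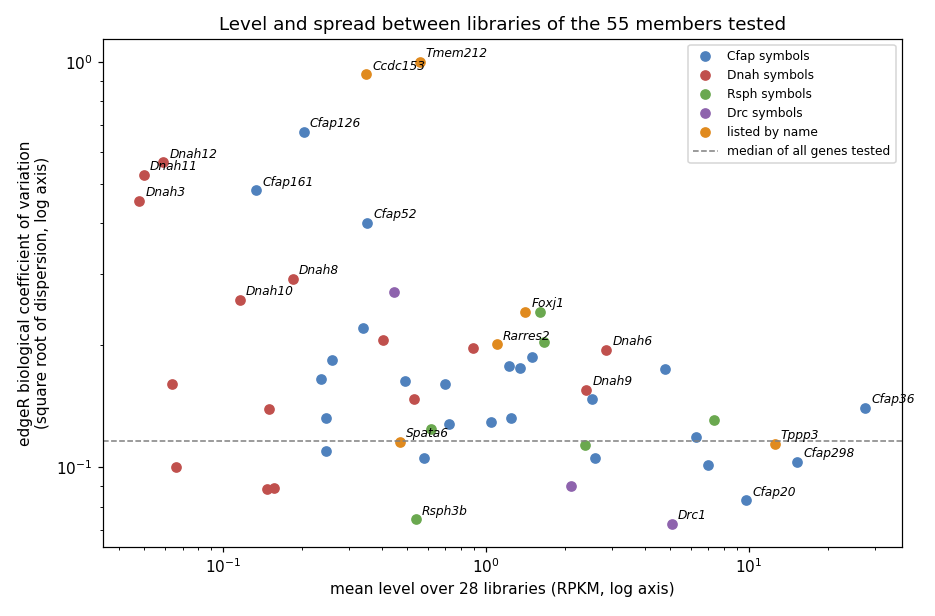
Mean level in RPKM over 28 libraries (x, log axis) against edgeR's biological coefficient of variation (y, log axis) for the 55 members tested, coloured by symbol class, with the median of all genes as a dashed line at 0.116. Tmem212 (1.001) and Ccdc153 (0.933) lie highest at under 1 RPKM, while Cfap20 (0.0829) and Drc1 (0.0726) lie low at more than 5 RPKM.

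Ccdc153 (chr9:44240676-44247306, plus strand, GRCm38), a coiled-coil protein of the axoneme, showed the pattern most plainly. Its raw counts were 2, 16, 6, 1, 3, 3, 5, 4 and 75 in vorinostat libraries 1 to 9. They were 43, 25, 15, 5, 28, 3, 10, 3 and 72 in transgenic vehicle libraries 1 to 9, and 3, 13, 11, 12, 40, 9, 25, 4, 39 and 16 in wildtype vehicle libraries 1 to 10. Vorinostat library 9 and transgenic vehicle library 9 stood highest of all 28, and the ranges of the 3 groups overlapped. As CPM, the lowest, median and highest values were 0.0372, 0.184 and 3.21 in vorinostat, 0.126, 0.637 and 2.86 in transgenic vehicle and 0.129, 0.593 and 1.57 in wildtype vehicle libraries.

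Tmem212 (chr3:27866066-27896368, minus strand), a membrane protein gene found in ependymal cells, followed Ccdc153 from library to library. Its raw counts ran from 0 to 38 in vorinostat, from 0 to 51 in transgenic vehicle and from 0 to 29 in wildtype vehicle libraries, with 1 library at 0 in each group. The highest CPM values were 1.63 in vorinostat library 9 and 2.03 in transgenic vehicle library 9, and the highest of wildtype vehicle was 0.886. Dnah12, an inner arm heavy chain gene, had raw counts of 3 to 40 in vorinostat, 3 to 75 in transgenic vehicle and 8 to 30 in wildtype vehicle libraries. Its highest CPM was again in library 9 of vorinostat (1.71) and library 9 of transgenic vehicle (2.98). Dynlrb2, a dynein light chain gene whose 2 to 19 counts per library kept it below the filter, likewise had its highest CPM in those libraries, at 0.599 and 0.755.

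Of all 65 members, 15 had their highest CPM of the 28 libraries in transgenic vehicle library 9 and 14 in vorinostat library 9. The next highest number was 5, in transgenic vehicle library 1. Vorinostat library 9 had a mitochondrial share of 6.94%. Its 14 members include Ccdc153 (r with Foxj1 0.733) and also Drc1 (0.067), Cfap20 (-0.009) and Cfap69 (-0.41). How often other genes were highest in these libraries was not computed, so the counts cannot be read as particular to the members. The summed member level was 622 CPM in vorinostat library 9 and 624 CPM in transgenic vehicle library 9. Over groups it averaged 555 ± 35.6 CPM in vorinostat (SD, n = 9), 544 ± 42.2 CPM in transgenic vehicle (SD, n = 9) and 540 ± 29.1 CPM in wildtype vehicle libraries (SD, n = 10). The group means differed by less than the SD within a group.

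**Figure D2:**
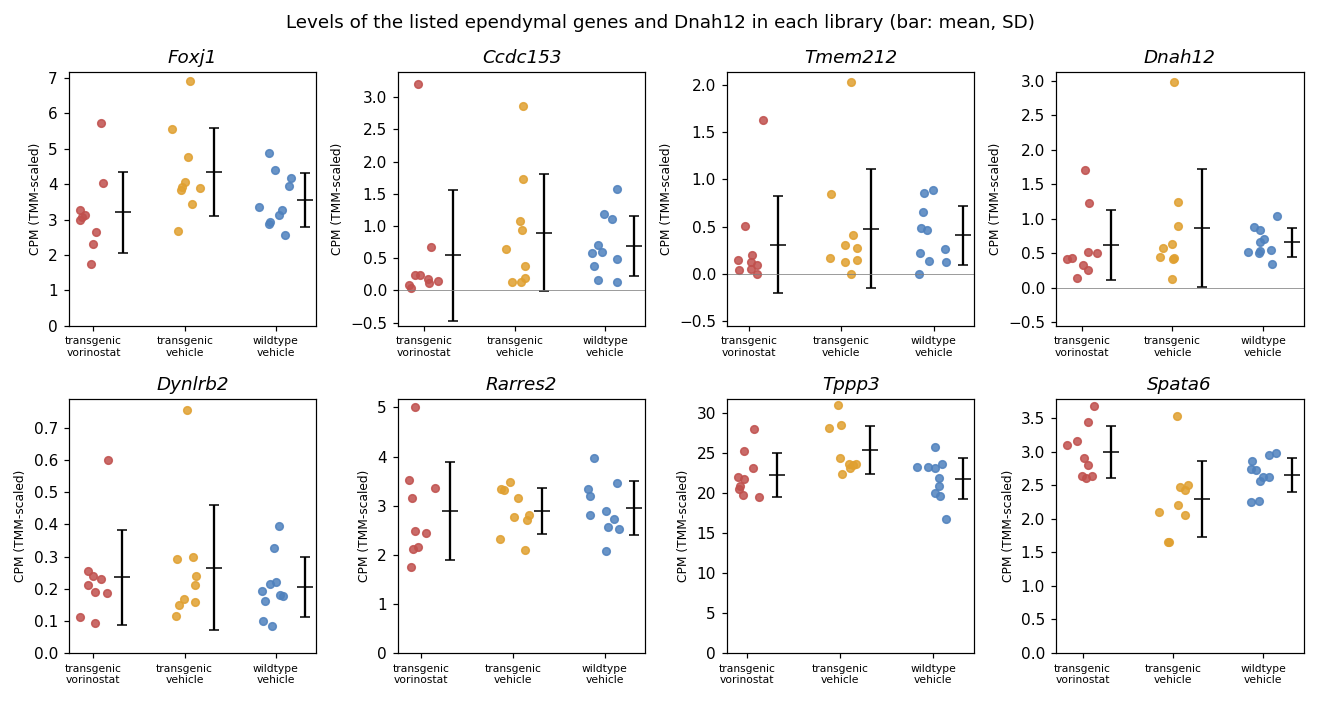
CPM of the 7 genes listed by name and of Dnah12 in each library (points) for transgenic vorinostat, transgenic vehicle and wildtype vehicle, with group mean and SD as a bar to the right of the points. A single high point, library 9, tops Ccdc153, Tmem212, Dnah12 and Dynlrb2 in both transgenic groups (Ccdc153 3.21 CPM in vorinostat and 2.86 CPM in transgenic vehicle), and all groups overlap in every panel.

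Foxj1 (chr11:116330704-116335399, minus strand) was measured at 1.74 CPM (lowest), 3.08 (median) and 5.73 (highest) in vorinostat libraries, against 2.68, 3.93 and 6.91 CPM in transgenic vehicle libraries and 2.55, 3.32 and 4.89 CPM in wildtype vehicle libraries. Library 9 was the highest in both transgenic groups and library 5 in wildtype, and the groups overlapped. Its biological coefficient of variation of 0.242 was smaller than that of Ccdc153, and its counts ran from 37 to 174 per library.

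Across the 28 libraries the log2 CPM of Foxj1 ran with that of Ccdc153 and Tmem212. Pearson's r with Tmem212 was 0.768 and Spearman's rho 0.764, each with a permutation p = 1e-05, the smallest that 100000 permutations can give. With Ccdc153, r was 0.733 (permutation p = 1e-05) and rho 0.662 (permutation p = 0.00021). Adjusted over the 7 relations computed, these were 3.5e-05 for r with either gene and 7e-05 and 0.000735 for rho with Tmem212 and with Ccdc153. Without vorinostat library 6 and transgenic vehicle library 9, the farthest from the Foxj1 median, r was 0.758 for Tmem212 and 0.698 for Ccdc153. Without the library highest in Ccdc153 CPM of each group, library 9 in all 3, it was 0.641 and 0.598. These libraries were also low in Xist, at 0.728 CPM in vorinostat, 0.437 in transgenic vehicle and 0.604 in wildtype vehicle. Library 8 of each group was low in Xist too (0.828, 0.503 and 0.424 CPM in the same order). There Ccdc153 was at 0.184, 0.126 and 0.154 CPM. The part of sex in these correlations was not tested. Within groups, r with Ccdc153 was 0.667 in vorinostat, 0.898 in transgenic vehicle and 0.551 in wildtype vehicle libraries. With Tmem212 it was 0.748 in vorinostat, 0.951 in transgenic vehicle and 0.675 in wildtype vehicle libraries.

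The other genes listed by name did not share this pattern to the same degree. Dynlrb2 had r = 0.470 and rho = 0.279 with Foxj1 (adjusted permutation p = 0.0261 and 0.352), and r was 0.340 without the farthest libraries and 0.129 without the library 9 of each group, so the relation rests on those libraries. Rarres2 had r = 0.321 and rho = 0.233 (adjusted permutation p = 0.170 and 0.411). Tppp3 had r = 0.0900 and rho = 0.167 (adjusted permutation p = 0.854 and 0.492), and Spata6, a gene of the sperm connecting piece, r = -0.0100 and rho = -0.112 (adjusted permutation p = 0.959 and 0.570). Within groups, r with Spata6 was 0.618 in vorinostat, 0.410 in transgenic vehicle and -0.0950 in wildtype vehicle libraries. In vorinostat libraries it was 0.772 for Dynlrb2, 0.287 for Rarres2 and -0.350 for Tppp3, in transgenic vehicle libraries 0.447 for Dynlrb2, 0.461 for Rarres2 and -0.0940 for Tppp3, and in wildtype vehicle libraries 0.0940 for Dynlrb2, 0.338 for Rarres2 and 0.127 for Tppp3.

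Of the 54 tested members other than Foxj1, 11 (20.4%) had r over 0.5 with it, beside 2.34% of 17008 genes, and the median r was 0.196 beside -0.0124. These 11 were Tmem212, Ccdc153, the heavy chain genes Dnah10, Dnah11, Dnah3, Dnah2 and Dnah12, Cfap126, Cfap57, Drc7 and the spoke head gene Rsph1. The abundant heavy chain genes Dnah6 and Dnah9 had r of 0.241 and 0.195. The genes most like Foxj1 among all genes tested were the adenylate kinase gene Ak7 (r = 0.824), Tmem212, Ppp1r32 (0.766), the dynein light intermediate chain gene Dnali1 (0.765) and Crocc2 (0.760). Those most like Ccdc153 were Ak7 (0.927), Crocc2 (0.889), Cdhr3 (0.851), Dnah3 (0.846) and Tmem212 (0.838). All libraries share tissue, kit and scaling, so these values describe these 28 libraries.

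**Figure D3:**
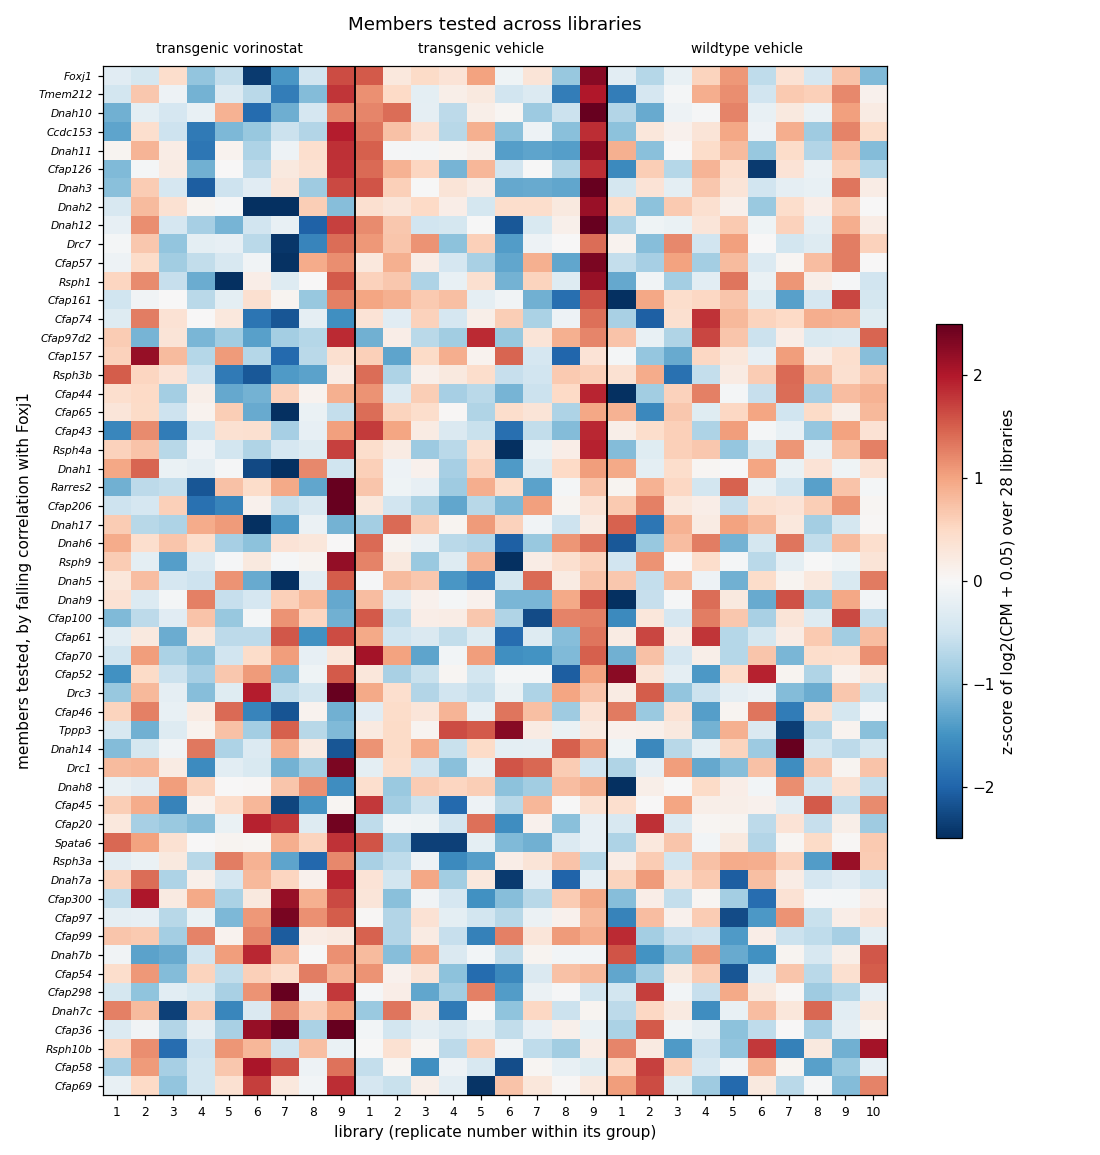
Z-scores of log2(CPM + 0.05) over 28 libraries for the 55 members tested (rows, by falling r with Foxj1) in the libraries of each group (columns, named by replicate number). Rows near the top, from Foxj1 to Rsph1, are mostly high together in library 9 of both transgenic groups (Dnah2 only in that of transgenic vehicle), while rows lower down, such as Cfap36, are high in vorinostat libraries 6, 7 and 9 and wildtype vehicle library 2.

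Markers of neighbouring cell types were read in the same libraries. Among 11 ependymal markers outside the list, 3 had r over 0.5 with Foxj1, namely Stoml3 (0.739), Fam216b (0.706) and Hdc (0.575). The other 8 lay lower, down to Riiad1 (0.0490), and the median was 0.345. Stoml3 was at 0 in 1 library, Fam216b in 4 and Mia in 12. The summed level of the 11 ran from 36.5 to 57.5 CPM in vorinostat, 39.9 to 60.0 CPM in transgenic vehicle and 33.4 to 60.3 CPM in wildtype vehicle libraries, and was highest in library 9, library 9 and library 5 of these groups. Pltp, also expressed outside the ependyma, averaged 29.8 CPM and Cd24a 6.79 CPM, so they carried most of that sum. The 16 choroid plexus markers summed to 184 to 374 CPM in vorinostat, 159 to 299 CPM in transgenic vehicle and 159 to 249.3 CPM in wildtype vehicle libraries, most of it Enpp2 (206 CPM on average), which oligodendrocytes also express. Their sum was highest in vorinostat library 6, transgenic vehicle library 6 and wildtype vehicle library 2.

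Ttr, the transthyretin gene and the most abundant transcript particular to choroid plexus, had its highest values of 91.1 CPM in vorinostat library 5, 43.7 CPM in transgenic vehicle library 9 and 25.1 CPM in wildtype vehicle library 3. Transgenic vehicle library 9, the highest of its group in Ccdc153, Tmem212 and Foxj1, was thus also its highest in Ttr, and it had the highest Folr1 level of all 28 (0.755 CPM). Over all libraries, r of Ttr with Foxj1 was 0.0680 and rho 0.158 (adjusted permutation p = 0.854 and 0.492). Within groups r was -0.352 in vorinostat, 0.463 in transgenic vehicle and 0.434 in wildtype vehicle libraries, and without the 4 libraries of high mitochondrial share it was 0.314 over all. None of the 16 choroid plexus markers had r over 0.5. Kcnj13 was at 0 in 2 libraries, Kcne2 in 2 and Folr1 in 1. Markers of dentate granule neurons, which lie next to CA1, also ran with Foxj1, with r over 0.5 for 4 of 6: 0.686 for Dsp, 0.656 for Prox1, 0.618 for Glis3 and 0.551 for Tdo2. So did 2 of 7 microglial and 1 of 7 CA1 neuron markers, with a median r of 0.196 and 0.181 over each list. No marker of meninges, astrocytes, oligodendrocytes, endothelium or ventricle wall progenitors had r over 0.5, though the endothelial median was 0.297. An r over 0.5 was thus not particular to ependymal markers. The part of these cell types in the Foxj1 level was not tested.

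**Figure D4:**
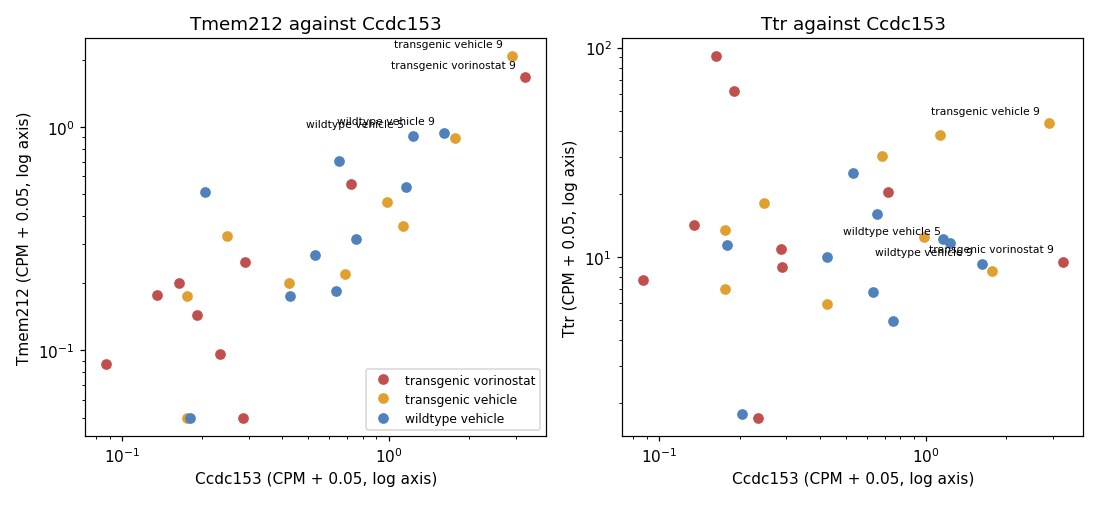
CPM + 0.05 of Tmem212 (left) and of the choroid plexus gene Ttr (right) against Ccdc153 in each of the 28 libraries, all on log axes and coloured by group. Tmem212 climbs with Ccdc153 up to 3.21 CPM of Ccdc153 in vorinostat library 9, whereas the library highest in Ttr (91.1 CPM) is a vorinostat library low in Ccdc153, and transgenic vehicle library 9 is high in Ccdc153 (2.86 CPM) and in Ttr (43.7 CPM).

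In transgenic vorinostat against transgenic vehicle libraries, the comparison that asks what the drug does in transgenic mice, 0 of 55 members passed an adjusted p of 0.05 in the quasi-likelihood test of edgeR with Benjamini-Hochberg adjustment, and percent called over all 17009 genes was 0. At an unadjusted p under 0.05 there were 7 members of 55, beside 14.4% of all genes, so the share of members was no larger than that of genes at large. DESeq2 called 0 members and 1 of all genes (0.00588%), and put 7 members under an unadjusted p of 0.05. The median log2 fold change was -0.03 for members and 0.00 for all genes tested, and 23 of 55 members were positive. With Xist as a covariate 28 of 55 were positive, and 40 of 56 in the authors' deposited table of adjusted values, so the majority direction depends on the setting. On the log2 scale 52 of 55 members differed by less than 0.5 either way. The CPM ranges of the groups overlapped for every member tested. The share of all genes whose ranges overlap is not given here, so this cannot be read as particular to the members.

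The members with the smallest p in this comparison are given by their values. Spata6 had 2.60, 2.90 and 3.68 CPM (lowest, median, highest) in vorinostat and 1.65, 2.21 and 3.53 CPM in transgenic vehicle libraries. Transgenic vehicle library 1 stood apart from the rest of its group, at the level of the upper vorinostat libraries. The log2 fold change was 0.38 (SE 0.111), with an adjusted p = 0.345 by edgeR's quasi-likelihood test. In the authors' deposited table of adjusted values, tested with limma, the difference was 0.38 log units (SE 0.0694, adjusted p = 0.0286), which is past the threshold, where 0.222% of the table's genes were called.

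The log2 fold change of Foxj1 was -0.43 (SE 0.176) in this comparison and an adjusted p = 0.345 in edgeR's quasi-likelihood test. It averaged 3.21 ± 1.14 CPM with vorinostat and 4.34 ± 1.25 CPM with vehicle (SD, n = 9 each). All 6 dentate granule markers had negative fold changes in the same comparison, with a median log2 value of -0.36, and 0 of them were called. Tppp3, expressed in many cell types, averaged 22.3 ± 2.77 CPM with vorinostat and 25.3 ± 3.03 CPM with vehicle (SD, n = 9 each). Its log2 fold change was -0.19 (SE 0.0789), with an adjusted p = 0.345 in the same edgeR test.

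Ccdc153 and Tmem212 had the most negative fold changes and the widest errors. Ccdc153 averaged 0.547 ± 1.02 CPM with vorinostat and 0.896 ± 0.908 CPM with vehicle (SD, n = 9 each), and had a log2 fold change of -0.73 (SE 0.644). Without the 4 libraries of high mitochondrial share, which include vorinostat library 9, it was -2.02 (adjusted p = 0.966, edgeR), and without the library highest in Ccdc153 of each group -1.61 (adjusted p = 0.582, edgeR). Tmem212 had -0.63 (SE 0.682), and its value was 0.10 once transgenic vehicle library 9 was left out. Leaving out single libraries in turn, the value of Ccdc153 ranged from -2.07 to -0.27. That of Tmem212 ranged from -1.68 to 0.10 over the 23 such fits that tested it. A single library thus moved either value in both directions, and could turn the sign of Tmem212.

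Among Cfap and Dnah genes, the dynein assembly factor Cfap300 averaged 11.2 ± 1.77 CPM with vorinostat and 9.52 ± 1.18 CPM with vehicle (SD, n = 9 each). The log2 fold change was 0.23 (SE 0.0868) with an adjusted p = 0.345 by edgeR. In the authors' deposited table it differed by 0.26 log units (SE 0.0489, limma adjusted p = 0.0344). Cfap58, known from the sperm flagellum, had a log2 fold change of 0.39 (SE 0.149) and Dnah2, an inner arm heavy chain gene, -0.25 (SE 0.109). Without the 4 libraries of high mitochondrial share the value was 0.17 for Cfap58, -0.07 for Dnah2 and 0.165 for Cfap300. Cfap36 had 66.6, 72.6 and 114 CPM (lowest, median, highest) in vorinostat and 68.5, 72.5 and 76.5 CPM in transgenic vehicle libraries. The highest values were 104, 114 and 109 CPM in vorinostat libraries 6, 7 and 9, those of high mitochondrial share, and the remaining vorinostat libraries lay within or just below the range of transgenic vehicle. Its log2 fold change of 0.19 (SE 0.0948) was -0.06 without the libraries of high mitochondrial share.

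By role, 12 of 25 Cfap, 5 of 15 Dnah, 4 of 6 Rsph, 1 of 3 Drc and 1 of 6 tested genes listed by name had a positive fold change. The abundant motor genes Dnah6 (log2 fold change 0.04, SE 0.133) and Dnah9 (-0.02, SE 0.106) and the link gene Drc1 (13.7 ± 1.22 CPM with vorinostat and 13.8 ± 0.906 CPM with vehicle, SD, n = 9 each) were close to even. The spoke head genes Rsph9 (12.02 ± 1.75 CPM with vorinostat, 11.6 ± 2.09 CPM with vehicle), Rsph4a (6.04 ± 1.23 CPM with vorinostat, 5.88 ± 1.67 CPM with vehicle) and Rsph10b (7.48 ± 0.890 CPM with vorinostat, 7.21 ± 0.448 CPM with vehicle) differed by less than their SD (n = 9 each). The log2 fold change was 0.03 (SE 0.0700) for the link gene Drc3 and -0.33 (SE 0.217) for Drc7. It was 0.22 (SE 0.109) for the inner arm gene Dnah7a and -0.05 (SE 0.137) for Dnah1. Among Cfap genes it was 0.08 (SE 0.0561) for Cfap20, -0.23 (SE 0.131) for Cfap65 and -0.12 (SE 0.0947) for Cfap74, a gene of the central pair. Without the 4 libraries of high mitochondrial share it was -0.03 for Cfap20, -0.07 for Cfap65 and 0.01 for Cfap74, and the sign turned for 10 of 29 named members tested: Cfap20, Cfap74, Cfap298, Cfap36, Cfap52, Dnah1, Dnah9, Drc3, Rsph4a and Rsph9. Rarres2 averaged 2.89 ± 0.998 CPM with vorinostat and 2.89 ± 0.476 CPM with vehicle (SD, n = 9 each), a log2 fold change that was -0.28 without those 4 libraries.

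In transgenic vehicle against wildtype vehicle libraries, which asks what the transgene does, 0 of 55 members and 0% of all genes were called by edgeR's quasi-likelihood test. At an unadjusted p under 0.05 there were 2 members, beside 1.33% of all genes. DESeq2 called 0 members and 0 genes, with 2 members under an unadjusted p of 0.05. The median log2 fold change was 0.01 for members and 0.00 for all genes, and 31 of 55 members were positive (20 of 55 with Xist as a covariate, 19 of 56 in the authors' deposited table of adjusted values, and 20 of 53 without the library highest in Ccdc153 CPM of each group), with 53 of 55 within 0.5 either way on the log2 scale. Those 2 members were Tppp3, with 25.3 ± 3.03 CPM in transgenic vehicle (SD, n = 9) and 21.8 ± 2.59 CPM in wildtype vehicle libraries (SD, n = 10), a log2 fold change of 0.22 (SE 0.0768) and an adjusted p = 0.9998 (edgeR), and the spoke stalk gene Rsph3a, with -0.27 (SE 0.123). Rsph3a and Rsph3b are near-identical copies, so reads may have been split between them.

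Foxj1 had a log2 fold change of 0.29 (SE 0.170) in this comparison, Ccdc153 0.36 (SE 0.600), Cfap126 0.80 (SE 0.487) and Cfap52 -0.51 (SE 0.301). Without transgenic vehicle library 9 the values were 0.17 for Foxj1, -0.10 for Ccdc153 and 0.48 for Cfap126, and without wildtype vehicle library 1 that of Cfap52 was -0.31. Ccdc153 also turned to -0.06 with Xist as a covariate. Spata6 had -0.21 (SE 0.109). In the authors' deposited table, tested with limma, it had -0.27 log units (adjusted p = 0.0386), where 2.21% of the table's genes were called. That table also called Cfap46 higher (0.301 log units, limma adjusted p = 0.0371) and Cfap100 lower (-0.282 log units, limma adjusted p = 0.0457). The mean CPM of Cfap46 was likewise higher in transgenic vehicle libraries. That of Cfap100 went against the table, at 20.4 CPM in transgenic vehicle and 19.9 CPM in wildtype vehicle libraries.

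In transgenic vorinostat against wildtype vehicle libraries, where drug and transgene differ at once, 0 of 55 members and 0% of all genes were called by edgeR's quasi-likelihood test. At an unadjusted p under 0.05 there was 1 member, beside 12.6% of all genes. DESeq2 called 0 members and 0 genes, and 1 member had an unadjusted p under 0.05. That member was Cfap300, with 11.2 ± 1.77 CPM in vorinostat (SD, n = 9) and 9.44 ± 0.950 CPM in wildtype vehicle libraries (SD, n = 10), a log2 fold change of 0.25 (SE 0.0847) and an adjusted p = 0.384 (edgeR). In the authors' deposited table, tested with limma, it differed by 0.16 log units (adjusted p = 0.0314), where 13.9% of the table's genes were called. The median log2 fold change was -0.03 for members and 0.01 for all genes, and 24 of 55 members were positive, with 55 of 55 within 0.5 either way on the log2 scale. Foxj1 had -0.15 (SE 0.174), Ccdc153 -0.37 (SE 0.654), Tmem212 -0.44 (SE 0.683), Spata6 0.17 (SE 0.107) and Rarres2 -0.04 (SE 0.151). Leaving out vorinostat library 9 gave -0.30 for Foxj1, -1.71 for Ccdc153, -1.49 for Tmem212 and -0.18 for Rarres2. Leaving out vorinostat library 6 gave -0.07 for Foxj1, vorinostat library 4 -0.28 for Tmem212 and wildtype vehicle library 9 -0.15 for Ccdc153. The comparisons share libraries and are not independent of one another.

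**Figure D5:**
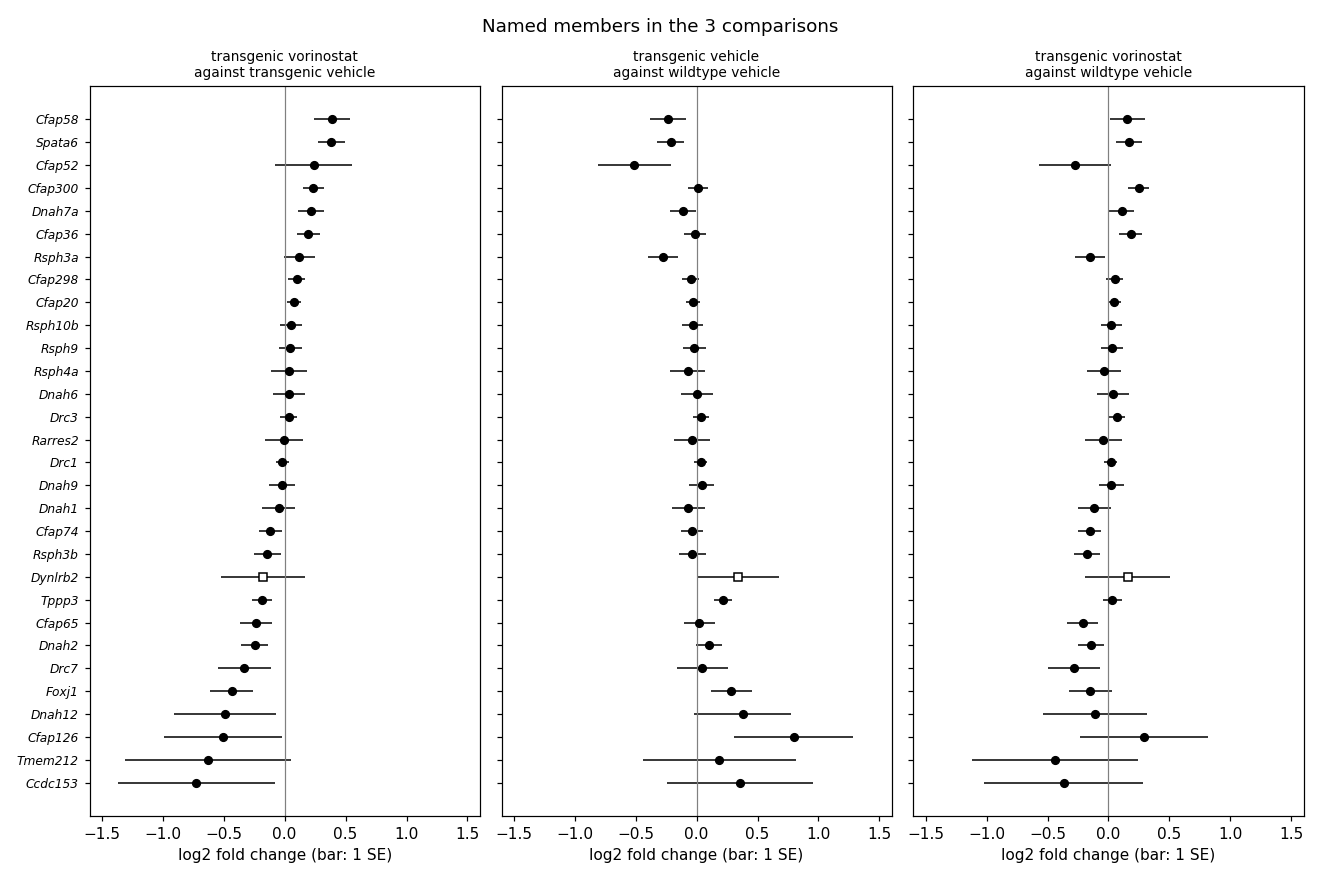
Log2 fold change (point) with 1 SE (bar) of 30 named members in the 3 comparisons, ordered by the value in transgenic vorinostat against transgenic vehicle. Filled circles are from the fit of filtered genes and open squares, for Dynlrb2, from the fit without a low-count filter, and Ccdc153 (-0.73, SE 0.644, in the left panel) has one of the widest bars.

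Lists of other ciliary genes gave 0 calls in the 3 comparisons by edgeR's quasi-likelihood test. Among 16 regulators of multiciliated cells, Rfx3 averaged 57.5 CPM and Rfx1 46.4 CPM, Gmnc 1.002 CPM and Mcidas 0.288 CPM, and Foxn4 was at 0 in all 28 libraries. Of the 16, 3 had r over 0.5 with Foxj1, namely Trp73 (0.669), Rfx2 (0.611) and Rfx4 (0.584), and 7 had r under 0, with Plk4 lowest (-0.474). Among dynein docking and assembly genes, Dnal1 averaged 161 CPM and Dnal4 38.5 CPM, and among central pair, spoke and doublet genes Gas8 averaged 30.6 CPM and Ccdc39 30.2 CPM. Genes that primary cilia also use were measured as well, with Ift172 at 92.0 CPM and Bbs4 at 65.3 CPM for transport and Pkd1 at 219 CPM and Gpr161 at 212 CPM for the neuronal cilium. Over these 5 lists the median log2 fold change lay between -0.09 and 0.04 in vorinostat against transgenic vehicle, between -0.02 and 0.02 in transgenic vehicle against wildtype vehicle and between -0.07 and 0.06 in vorinostat against wildtype vehicle. At an unadjusted p under 0.05 in vorinostat against transgenic vehicle were 7 of 24 transport, 3 of 15 docking and assembly and 2 of 11 regulator genes. There were also 2 of 10 neuronal cilium and 1 of 25 spoke and doublet genes, beside 14.4% of all genes. In vorinostat against wildtype vehicle these were 3, 3, 1, 3 and 1 in the same order, beside 12.6%. In transgenic vehicle against wildtype vehicle they were 0 in every list, beside 1.33%.

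In the 10 lists of cell type markers, too, edgeR's quasi-likelihood test called 0 of 77 tested genes in each of the 3 comparisons, with 9 at an unadjusted p under 0.05 for vorinostat against transgenic vehicle, 1 for transgenic vehicle against wildtype vehicle and 8 for vorinostat against wildtype vehicle. Over all genes these shares were 14.4%, 1.33% and 12.6%, and the 3 counts of 77 are no larger shares. In vorinostat against transgenic vehicle the median log2 fold change was -0.36 for dentate granule and -0.15 for CA1 neurons, and between -0.09 and 0.08 for the other lists. In transgenic vehicle against wildtype vehicle it was 0.27 for choroid plexus, 0.22 for dentate granule neurons, 0.17 for meningeal fibroblasts and 0.15 for oligodendrocytes, and between -0.04 and 0.08 for the others. In vorinostat against wildtype vehicle it was 0.22 for choroid plexus, -0.21 for dentate granule neurons, 0.15 for ventricle wall progenitors and -0.12 for CA1 neurons, and between 0.00 and 0.10 for the others. Abundant markers included Camk2a (4087 CPM) and Mpped1 (462 CPM) of CA1 neurons, Slc1a2 (3880 CPM) and Aldoc (797 CPM) of astrocytes and Mbp (2410 CPM) of oligodendrocytes. Microglial Csf1r (103 CPM), endothelial Flt1 (56.1 CPM) and Itm2a (32.7 CPM), meningeal Dcn (88.3 CPM) and Igf2 (31.9 CPM), dentate Prox1 (26.5 CPM) and Lct (24.3 CPM) and progenitor Dcx (39.0 CPM) and Egfr (23.5 CPM) were lower.

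The authors' deposited table of coexpression modules holds 56 members. The module called green took 15 of them (26.8%, beside 16.5% of the table's 18014 genes), purple 10 (17.9%, beside 14.8%), black 8 (14.3%, beside 10.7%) and brown 7 (12.5%, beside 6.28%). Green held Foxj1 (membership score 0.691), Dnah2 (0.809) and Cfap65 (0.734), while Ccdc153 (0.659), Dnah12 (0.627) and Dnah9 (0.798) were in brown and Cfap20 (0.863) in black, per the authors' deposited table.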

How the data were processed

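Read counts per gene, deposited by the authors for each library, were used as they stand. The submitters' processing notes name mm10, STAR 2.5.2b, Subread 1.5.1 with featureCounts, and FastQC 0.11.5. Strand setting and annotation release are not given in the sources used here. Also deposited by the authors were adjusted log values from a mixed linear model, read as log2 (their base is not stated), and a table of module membership scores with their p-values, which were not used.

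Members, gene lists and the rule for named genes were chosen with earlier results of these data known. The rule takes the 7 genes listed by name, the 3 of each symbol class with the highest RPKM, the 3 smallest p in each direction of a comparison, the 4 highest and 4 lowest dispersions, the 3 highest scores in the module holding most members, and the 2 most abundant genes of each other list, some of which are not reported here. Genes singled out otherwise were chosen after their values were seen.

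Genes passing edgeR's filter (minimum count 10, minimum total 15) numbered 17009. They were tested in 1 fit over 28 libraries by edgeR 4.0.16 (R 4.3.3, quasi-likelihood test, TMM scaling) and Benjamini-Hochberg adjustment, threshold 0.05. The filter left out 10 members. On simulated counts of vorinostat against transgenic vehicle with 17009 genes, the test recovered 79 of 100 genes changed 1.5-fold and 98 of 100 changed 2-fold. It also called 12 unchanged genes. The changed genes were drawn at random from all genes tested (median biological coefficient of variation 0.116, beside 0.160 for members). These shares therefore do not describe members of wide spread, such as Tmem212 (1.001) and Ccdc153 (0.933). DESeq2 1.42.0, and limma 3.58.1 on the adjusted log values deposited by the authors, were alternatives. Limma was fitted on the groups alone, so its SE and adjusted p do not count any terms the authors' model had removed. Correlations used log2 CPM with a prior count of 2. No files were identical among the 117 within-group pairs of libraries. Gene annotation was GENCODE vM21. Marker lists covered ependyma, choroid plexus, meninges, astrocytes, oligodendrocytes, microglia, endothelium, CA1 and dentate neurons and ventricle wall progenitors.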

Additional observations from a re-analysis of the deposited data

Results flagged for a closer look

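A library stood apart from the rest of its group, by Dixon's test at the 95% level, in 12 of 93 combinations of a named gene and a group. Chance flags about 1 in 20 groups of normally spread values. The named genes were chosen partly for high dispersion in these same libraries, so 12 of 93 cannot be set against that rate. A library shared by several genes is not independent evidence for each.

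Vorinostat library 9 stood apart for 5 genes. Ccdc153 was at 3.21 CPM there and at 0.0372 to 0.674 in the other 8 libraries of the group, Tmem212 at 1.63 CPM (others 0 to 0.506), Cfap126 at 1.198 CPM (others 0.0744 to 0.368), Dynlrb2 at 0.599 CPM (others 0.0940 to 0.255) and Rsph9 at 16.0 CPM (others 9.59 to 12.8). This library also had a mitochondrial share of 6.94%, and it was the highest of its group in the summed markers of astrocytes (7571 CPM, group median 6120.4), microglia (411 CPM, group median 333) and ventricle wall progenitors (113 CPM, group median 104). The part of these in the values above was not tested.

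Transgenic vehicle library 9 stood apart for 4 genes. Tmem212 was at 2.03 CPM there (others 0 to 0.841), Dnah12 at 2.98 CPM (others 0.126 to 1.24), Dynlrb2 at 0.755 CPM (others 0.116 to 0.300) and Dnah2 at 11.7 CPM (others 7.24 to 8.62). It was also the highest of its group in the choroid plexus gene Ttr (43.7 CPM) and the highest of all 28 libraries in Folr1 (0.755 CPM). In Kl it had 5.84 CPM, below library 5 (6.27 CPM), and in Kcnj13 0.238 CPM, below library 3 (0.467 CPM). The sum of the 16 choroid plexus markers was highest in transgenic vehicle library 6. The part of these markers in the values above was not tested. The mitochondrial share of transgenic vehicle library 9 was 4.09%.

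Spata6 was at 3.53 CPM in transgenic vehicle library 1 (others 1.65 to 2.503). In wildtype vehicle library 2, whose mitochondrial share was 6.41%, Cfap36 was at 94.4 CPM (others 64.4 to 75.8) and Cfap20 at 50.1 CPM (others 40.3 to 44.5).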

How the results depend on the processing

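The count of members called was 0 in all 3 comparisons under RLE scaling, without the low-count filter, with Ttr or Xist as a covariate, without the 4 libraries of high mitochondrial share, in DESeq2 and with each of the 28 libraries left out in turn (0 to 0). It was also 0 without the library highest in Ccdc153, by CPM or by raw counts, of each group, an alternative chosen after seeing the data. Only limma on the authors' deposited table of adjusted values gave calls: 2 members in vorinostat against transgenic vehicle (0.222% of the table's genes were called), 3 in transgenic vehicle against wildtype vehicle (2.21%) and 3 in vorinostat against wildtype vehicle (13.9%), and the cause was not tested. Leaving out single libraries, the median log2 fold change of members ranged from -0.08 to 0.02, from -0.04 to 0.03 and from -0.10 to -0.00 in these comparisons, and the count of members at an unadjusted p under 0.05 from 4 to 11, 1 to 4 and 1 to 5. Of 87 named member values, 34 kept their sign under every alternative run. Those of Foxj1 did so in all 3 comparisons, while Ccdc153 in transgenic vehicle against wildtype vehicle had a log2 value of -0.06 with Xist as a covariate. Of 27 pairs with the same number in the titles, 7 had deviations correlated above 0.1 (range -0.34 to 0.41). Pairs of different numbers were not compared, so this cannot decide whether the numbers pair the libraries. With these numbers, or those of the description labels, as a replicate block 0 members were called. At 1 to 75 counts per library for Ccdc153 and 0 to 51 for Tmem212, depth limits what a difference in these genes could show.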
